A study of Mus musculus with 6 samples.

Results

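The genes described here encode amino acid and peptide transporters, 69 of the 55335 genes in a deposited count table from mouse intestinal tissue. They were taken by gene symbol: every protein-coding member of the solute carrier families SLC1, SLC3, SLC6, SLC7, SLC15, SLC36, SLC38 and SLC43, plus Slc16a10, with the cystine transporter gene Slc7a11 left out. The families contributed 21 genes from SLC6, 15 from SLC7, 11 from SLC38, 7 from SLC1, 5 from SLC15, 4 from SLC36, 3 from SLC43 and 2 from SLC3, beside Slc16a10. One of the 69, Slc7a6os, matched by its symbol alone, since it names a gene on the strand opposite Slc7a6 and is no transporter. The study sequenced RNA from 3 Trmt6-/- and 3 wild-type (WT) mice, 1 library per mouse, and all 6 mice carried colitis brought on by DSS (dextran sulfate sodium), which damages the epithelium. TRMT6 is the partner subunit of the methyltransferase that makes 1-methyladenosine in tRNA. The labels give neither the way the Trmt6 allele was made, nor the age of the mice, nor the segment of intestine.

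Dietary protein is taken up by enterocytes, the absorptive cells of the small intestinal villus. Carriers in the apical brush border bring in free amino acids, driven by sodium or protons or by exchange, and the peptide carrier PEPT1 brings in di- and tripeptides. Carriers in the basolateral membrane, many of them heavy and light chain pairs, then release amino acids toward the blood or exchange them. Other carriers of the same families feed the cell itself, sit in lysosomes, or recover neurotransmitters and osmolytes. A subset is switched on by ATF4, the transcription factor of the amino acid response.

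Counts summed to between 15213972 and 16972758 per library. Values are CPM, counts scaled to an equal library size with TMM factors, unless a length-scaled level, CPM per kilobase of exon (RPKM), is named. A fold change is a log2 difference ± SE from edgeR's quasi-likelihood test, with positive values for genes higher in the libraries labelled Trmt6-/-, and p adjusted over the 14107 genes tested. Trmt6 itself stood at 39.8 CPM in KO72, 34.2 CPM in KO73 and 36.2 CPM in KO75, against 30.9 CPM in WT185, 18.7 CPM in WT186 and 23.1 CPM in WT187 (log2 fold change 0.60 ± 0.21, adjusted p = 0.335), which gives no sign of loss in the libraries labelled Trmt6-/-. These counts are summed over the exons of each gene, so they cannot show an allele that leaves the transcript level unchanged. Every direction below rests on the labels. The colonic position genes Hoxb13 and Hoxd13 had no count in any library. The 6 colonocyte markers that include them summed to 356 to 564 CPM among libraries labelled Trmt6-/-, against 287 to 620 CPM among WT libraries. Slc26a3 and Ceacam20, which averaged 279 and 165 CPM, made up most of it, and Aqp8 reached 54.5 CPM in WT186. Markers of fibroblasts and of smooth muscle summed to at most 8.38 and 2.44 CPM, while enterocyte markers were abundant. Of 6 enteroendocrine cell markers 5 were lower without overlap, beside 9.03% of all tested genes, and none of the 6 passed after adjustment. The 6 summed to 147 to 165 CPM among libraries labelled Trmt6-/-, against 274 to 440.2 CPM among WT libraries. Other markers of position and cell type differed among libraries of the same group. Summed CPM of 8 absorptive enterocyte markers spanned 29603 to 48691 among libraries labelled Trmt6-/-, against 16451 to 42626 among WT libraries, with WT185 the lowest. Crypt stem and cycling cell markers, 5 in all, summed to 1035, 649 and 179.6 CPM in KO72, KO73 and KO75, against 2266, 657 and 1359 CPM in WT185, WT186 and WT187. The duodenal protease gene Tmprss15 reached 231 CPM in WT186 and at most 16.9 CPM elsewhere, and the pancreatic gene Ctrb1 reached 14.8 CPM in WT186 and at most 0.142 CPM elsewhere. An index of ileal minus proximal markers, used as a covariate in 1 alternative fit, was 0.61, -1.004 and -3.67 in KO72, KO73 and KO75, against -1.69, -7.41 and -6.04 in WT185, WT186 and WT187. Its group means were -1.35 ± 2.16 and -5.04 ± 2.99 (SD, n = 3 each). Of its 4 ileal markers 1 was higher without overlap, and of its 4 proximal markers 1 was lower, beside 9.7% and 9.03% of all tested genes. Fabp1, a proximal marker, had a log2 fold change above 0 (0.21), while the other proximal markers lay below 0. The index thus differed in group mean, but KO75 lay below WT185, so the groups overlapped. The covariate fit cannot fully tell position from genotype. The part of these differences in the results below was not tested, except where a fit with the index or without a library is given. In bulk tissue, fewer cells of a type and less RNA per cell cannot be told apart.

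Of the 69 genes, 45 were abundant enough to test and 24 were not, of which 11 had no count in any library. None of the 45 passed an adjusted p of 0.05 in either direction, where 0.0354% of all tested genes were called higher and 0.00709% lower (lowest adjusted p among the transporters 0.173). At an unadjusted p below 0.05 there were 5 higher and 3 lower, that is 11.1% and 6.67% of the 45, against 6.15% and 5.94% of all tested genes. Values of the 2 groups did not overlap for 7 genes that were higher and 2 that were lower in the libraries labelled Trmt6-/-, 15.6% and 4.44%, beside 9.7% and 9.03% of all tested genes. Slc6a18 and Slc15a5 are among the 5 higher and among the 7. They passed the low-count filter only through the libraries labelled Trmt6-/-, so both higher shares hold genes that could be tested only because they were higher. Log2 fold changes lay above 0 for 30 of the 45 (66.7%, against 46.1% of all tested genes) and below 0 for 15 (33.3%, against 53.9%), with a median of 0.22 beside -0.03 over all genes. They were under 0.5 in size for 27 of the 45. DESeq2, run as an alternative, called 3 transporters higher and 1 lower (2.66% and 1.83% of all genes), namely Slc6a9, Slc6a18 and Slc15a5, and Slc1a3. Without the low-count filter edgeR called 2 higher and 0 lower (0.397% and 0.193% of all genes), namely Slc6a9 and Slc6a18. At an unadjusted p below 0.05 DESeq2 gave 8 higher and 4 lower (7.11% and 6.82% of all genes), and the fit without the filter 10 higher and 5 lower (4.23% and 4.16%). The counts moved to 12 higher and 5 lower without WT185 (7.58% and 6.92% of all genes), 10 higher and 1 lower without WT186 (6.84% and 4.68%), and 12 higher and 3 lower with the regional index as covariate (9.85% and 10.7%). The covariate fit shared 4 of the 8 genes, namely Slc6a9, Slc15a5, Slc6a18 and Slc1a3.

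**Figure D1:**
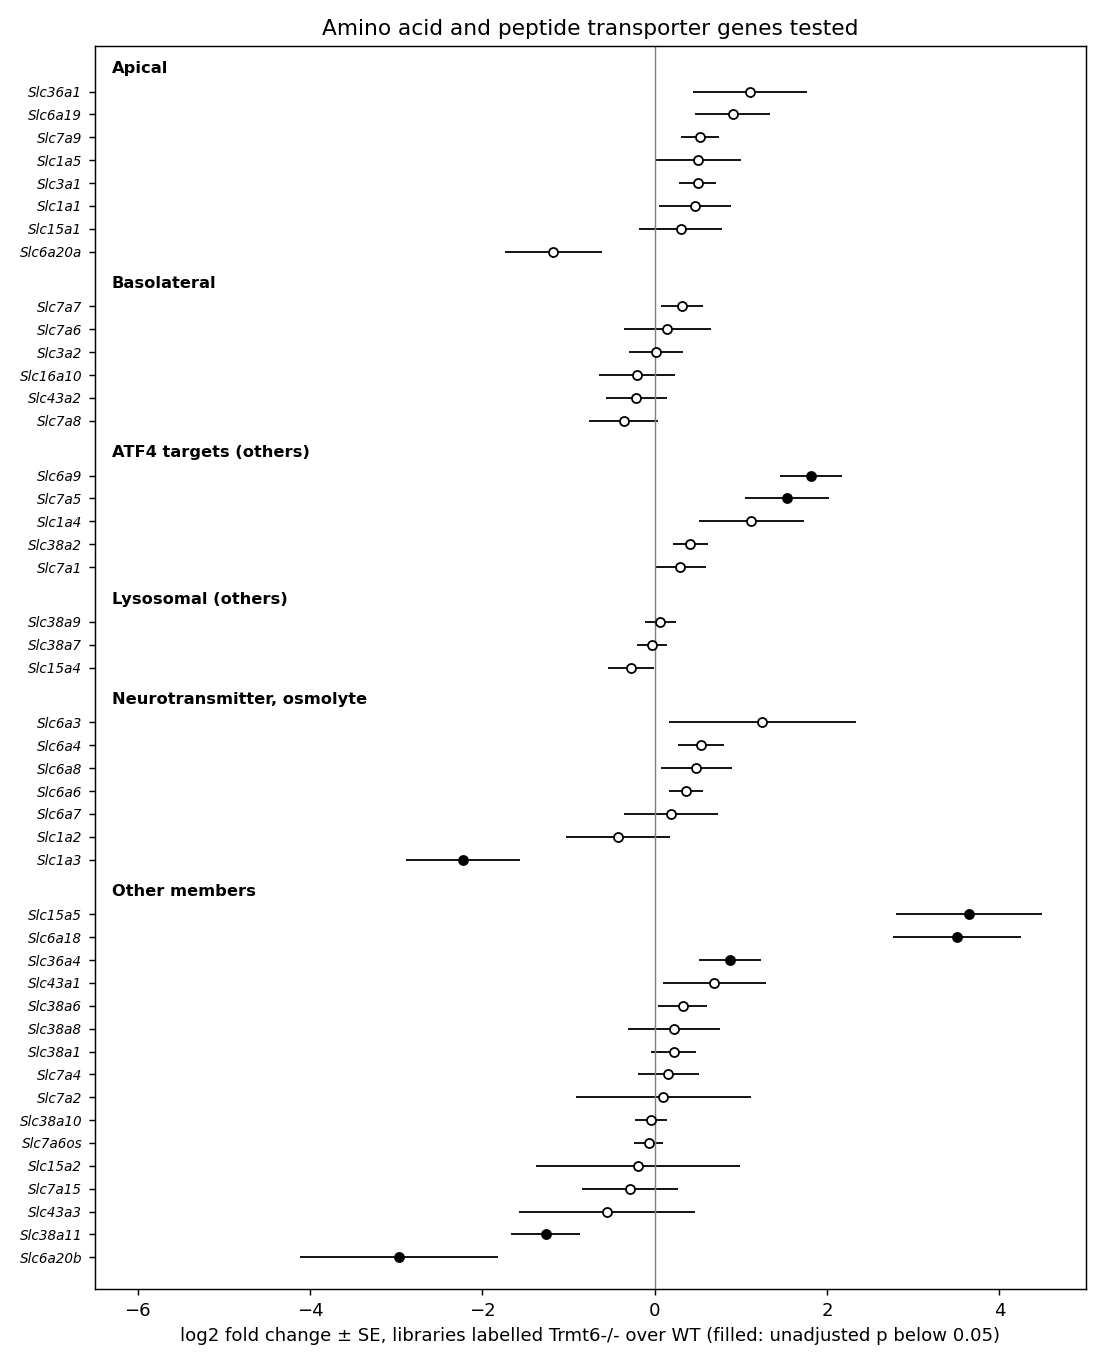
Log2 fold change (x axis, libraries labelled Trmt6-/- over WT) of the 45 tested transporter genes, each shown once under its first role, with bars of ± 1 SE. Filled points have an unadjusted p below 0.05. The apical group lies right of 0 except Slc6a20a, and the basolateral group lies around 0.

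The spread among libraries was wide for these genes. In WT the highest library exceeded the lowest by a median of 2.54 times over the 45 genes, against 1.61 times over all tested genes, and 29 of the 45 differed by 2 times or more. In the libraries labelled Trmt6-/- the median was 1.64 times, against 1.44 times over all tested genes. WT185 or WT186 was the lowest library for 31 of the 45, 15 for WT185 (33.3%) and 16 for WT186 (35.6%), against 20.4% and 23.3% of all tested genes. WT186 was also the highest library for 10 of the 45 (22.2%, against 24.7% of all tested genes). By mean level the tested genes fell into 17 above 100 CPM, 15 between 10 and 100 CPM and 13 at 10 CPM or less.

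Apical transporters of the brush border stood higher on average in the libraries labelled Trmt6-/-, but no member passed the test. Of 9 listed genes 8 were tested, 7 with log2 fold changes above 0, with a median of 0.50, and 0 of the 8 reached an unadjusted p of 0.05. With the regional index as covariate the median was 0.82 and 4 of the 8 reached it, namely Slc7a9 (log2 fold change 0.89), Slc36a1 (2.22), Slc3a1 (0.76) and Slc6a19 (1.59), while none passed after adjustment. More genes of the whole table reached it too, with 9.85% of all tested genes higher and 10.7% lower, against 6.15% and 5.94% in the reported fit. In the covariate fit Slc15a1 was at 1.20 and Slc6a20a at -0.43. Slc6a19 (B0AT1), the main sodium-driven carrier of neutral amino acids, had the highest length-scaled level of the list, at 176 RPKM over the 6 libraries. It stood at 1098 CPM in KO72, 1548 CPM in KO73 and 798 CPM in KO75, against 306 CPM in WT185, 899 CPM in WT186 and 636 CPM in WT187 (log2 fold change 0.90 ± 0.44, adjusted p = 0.495). KO75 lay below WT186, so the groups overlapped, and WT185 was far below the rest.

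Slc7a9 and Slc3a1 encode the light and heavy chain of the exchanger for cystine and basic amino acids, the system lost in cystinuria. Slc7a9 was measured at 267 CPM in KO72, 369 CPM in KO73 and 375 CPM in KO75, against 188 CPM in WT185, 276 CPM in WT186 and 239 CPM in WT187 (log2 fold change 0.52 ± 0.22, unadjusted p = 0.0516, adjusted p = 0.419). Slc3a1 stood at 255 CPM in KO72, 295 CPM in KO73 and 236 CPM in KO75, against 142 CPM in WT185, 227 CPM in WT186 and 188 CPM in WT187 (log2 fold change 0.50 ± 0.22, unadjusted p = 0.0538, adjusted p = 0.426), and it was the apical gene whose groups did not overlap. Of its exon bases 26.5% are shared with the neighbouring gene Prepl, and reads there were not counted. Length-scaled, the pair was close to even, with Slc7a9 at 0.889, 1.06 and 1.35 times Slc3a1 in KO72, KO73 and KO75, against 1.13, 1.03 and 1.08 times in WT185, WT186 and WT187. The ratio was lowest in KO72 and highest in KO75, and the WT libraries lay between them.

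Slc15a1 (PEPT1), which takes up di- and tripeptides with protons, stood at 449 CPM in KO72, 655 CPM in KO73 and 373 CPM in KO75, against 154 CPM in WT185, 482 CPM in WT186 and 563 CPM in WT187 (log2 fold change 0.30 ± 0.48, adjusted p = 0.867). The groups interleaved apart from WT185, and without WT185 the log2 fold change was -0.06. Slc36a1 (PAT1), a proton-driven carrier of small amino acids found in the brush border and in lysosomes, spread widely within its groups. It stood at 124 CPM in KO72, 495 CPM in KO73 and 715 CPM in KO75, against 112 CPM in WT185, 339 CPM in WT186 and 170.5 CPM in WT187 (log2 fold change 1.10 ± 0.66, adjusted p = 0.587). KO72 lay beside the lowest WT library, while KO73 and KO75 exceeded all WT libraries. The fold change was 0.59 without KO75 and 1.68 without WT186.

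Slc6a20a encodes the carrier of proline and other imino acids and was the apical gene with a fold change below 0. It stood at 151 CPM in KO72, 142 CPM in KO73 and 104 CPM in KO75, against 162 CPM in WT185, 594 CPM in WT186 and 143 CPM in WT187 (log2 fold change -1.18 ± 0.56, adjusted p = 0.481). WT186 was high and the other 5 libraries were alike, and without WT186 the log2 fold change was -0.19. Its neighbour Slc6a20b followed, at 0.677 CPM in KO72, 0.768 CPM in KO73 and 0.285 CPM in KO75, against 1.20 CPM in WT185, 11.9 CPM in WT186 and 0.719 CPM in WT187 (log2 fold change -2.97 ± 1.15, unadjusted p = 0.0362, adjusted p = 0.372), again with WT186 as the high library and overlap among the rest. Without WT186 that value was -0.72. WT186 also held the high values of Tmprss15 and Ctrb1 given above, so the 2 imino acid carrier genes were high in the library with duodenal and pancreatic transcripts. Each of the pair shares exon bases with a gene beside it, 14.3% for Slc6a20a and 21.1% for Slc6a20b, and reads that map equally to 2 genes were not counted, so levels of such close relatives are uncertain. On GRCm38 the pair lies at chromosome 9, 123634770 to 123678885 for Slc6a20a and at chromosome 9, 123590800 to 123632565 for Slc6a20b.

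The remaining apical genes were Slc1a1 and Slc1a5. Slc1a1 (EAAT3), which carries glutamate and aspartate, stood at 94.7 CPM in KO72, 89.7 CPM in KO73 and 78.4 CPM in KO75, against 102 CPM in WT185, 27.8 CPM in WT186 and 60.2 CPM in WT187 (log2 fold change 0.47 ± 0.42, adjusted p = 0.743), and 31.9% of its exon bases are shared with another gene. Slc1a5 (ASCT2), an exchanger of glutamine and other neutral amino acids, stood at 161 CPM in KO72, 87.1 CPM in KO73 and 90.1 CPM in KO75, against 133 CPM in WT185, 32.7 CPM in WT186 and 72.9 CPM in WT187 (log2 fold change 0.50 ± 0.50, adjusted p = 0.770). Both were lowest in WT186, which set them apart from Slc6a19 and Slc15a1. With 1 library left out, the fold change ran from 0.11 without WT186 to 1.02 without WT185 for Slc1a1, and from 0.13 to 1.12 for Slc1a5 in the same 2 fits. With the regional index as covariate the values were -0.13 and -0.29.

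**Figure D2:**
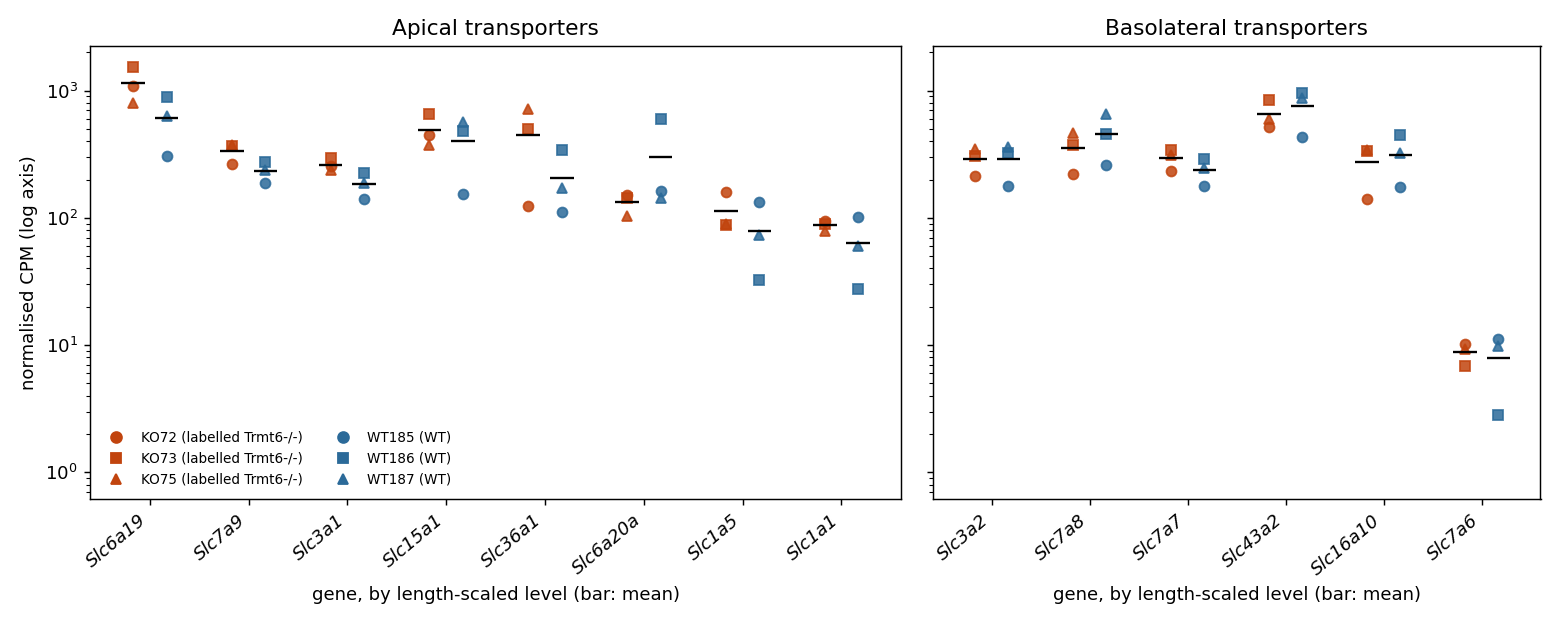
Normalised CPM (log axis) of the tested apical and basolateral transporter genes in each library, with the libraries labelled Trmt6-/- in red on the left of each gene and WT in blue on the right, and a bar at each group mean. Slc6a20a is high in WT186 alone, at 594 CPM, and Slc36a1 reaches 715 CPM in KO75 and has its lowest value, 112 CPM, in WT185.

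Basolateral transporters did not differ in level between the groups beyond the spread of the libraries. All 6 listed genes were tested, 3 with log2 fold changes above 0 and 3 below, between -0.36 and 0.32 with a median of -0.10, and none reached an unadjusted p of 0.05. Slc3a2 encodes 4F2hc, the heavy chain shared by several light chains, and stood at 215 CPM in KO72, 305 CPM in KO73 and 349.7 CPM in KO75, against 179 CPM in WT185, 322 CPM in WT186 and 363 CPM in WT187 (log2 fold change 0.01 ± 0.31, adjusted p = 0.995). Slc7a8 (LAT2), a light chain that exchanges neutral amino acids, stood at 222 CPM in KO72, 377 CPM in KO73 and 464 CPM in KO75, against 258 CPM in WT185, 455 CPM in WT186 and 651 CPM in WT187 (log2 fold change -0.36 ± 0.40, adjusted p = 0.800). For both genes the values of one group lay within or beside those of the other.

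Slc7a7 encodes y+LAT1, the light chain that exports basic amino acids and is lost in lysinuric protein intolerance. It stood at 232 CPM in KO72, 341 CPM in KO73 and 313 CPM in KO75, against 178 CPM in WT185, 289 CPM in WT186 and 244 CPM in WT187 (log2 fold change 0.32 ± 0.25, adjusted p = 0.693). Slc7a6 (y+LAT2), a light chain for the same substrates, was rare, at 10.2 CPM in KO72, 6.84 CPM in KO73 and 9.39 CPM in KO75, against 11.2 CPM in WT185, 2.80 CPM in WT186 and 9.83 CPM in WT187 (log2 fold change 0.15 ± 0.50, adjusted p = 0.946). The summed length-scaled level of the 4 light chain genes Slc7a5, Slc7a6, Slc7a7 and Slc7a8 was 2.13, 2.16 and 2.0005 times that of Slc3a2 in KO72, KO73 and KO75, against 2.23, 1.97 and 2.04 times in WT185, WT186 and WT187. Light chains therefore stood near 2 times the heavy chain in every library, although Slc3a2 itself ranged from 178.8 to 363 CPM.

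Slc43a2 (LAT4) and Slc16a10 (TAT1) let amino acids leave the cell by facilitated diffusion, TAT1 for aromatic ones. Slc43a2 stood at 515 CPM in KO72, 844 CPM in KO73 and 601 CPM in KO75, against 436 CPM in WT185, 962 CPM in WT186 and 879 CPM in WT187 (log2 fold change -0.22 ± 0.35, adjusted p = 0.872). Slc16a10 stood at 140.4 CPM in KO72, 333 CPM in KO73 and 344 CPM in KO75, against 175 CPM in WT185, 444 CPM in WT186 and 324 CPM in WT187 (log2 fold change -0.21 ± 0.44, adjusted p = 0.908). KO72 and WT185 were the low libraries for Slc3a2, Slc7a8, Slc7a7, Slc43a2 and Slc16a10 alike. With the regional index as covariate the fold changes of Slc7a8, Slc43a2 and Slc16a10 turned to 0.41, 0.42 and 0.71, and the list median to 0.54. In that fit Slc7a7 (0.73, unadjusted p = 0.0154) and Slc3a2 (0.65, unadjusted p = 0.0285) fell below 0.05 before adjustment, and no member passed after it. Of all tested genes 9.85% were higher at that bound in the same fit.

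The apical list as a whole, taken as the mean log2 CPM of its 8 tested genes, was 7.88, 8.22 and 7.95 in KO72, KO73 and KO75, against 7.26, 7.76 and 7.57 in WT185, WT186 and WT187. Every library labelled Trmt6-/- lay above every WT library, by 0.48 on average. The basolateral list was 7.15, 7.69 and 7.75 in KO72, KO73 and KO75, against 7.12, 7.60 and 7.87 in WT185, WT186 and WT187, and the groups overlapped fully. Apical minus basolateral was 0.73, 0.53 and 0.20 in KO72, KO73 and KO75, against 0.15, 0.17 and -0.30 in WT185, WT186 and WT187. The group means were 0.49 ± 0.27 and 0.01 ± 0.26 (SD, n = 3 each), a difference of 0.48, and KO75 lay just above WT186 and WT185. No p is given for these list values, because the members were chosen with results known. With the regional index as covariate the difference was 0.27. Without WT187 it was 0.10 when Slc6a14, which is then abundant enough to test, joined the apical list, and 0.33 with the same 8 genes.

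**Figure D3:**
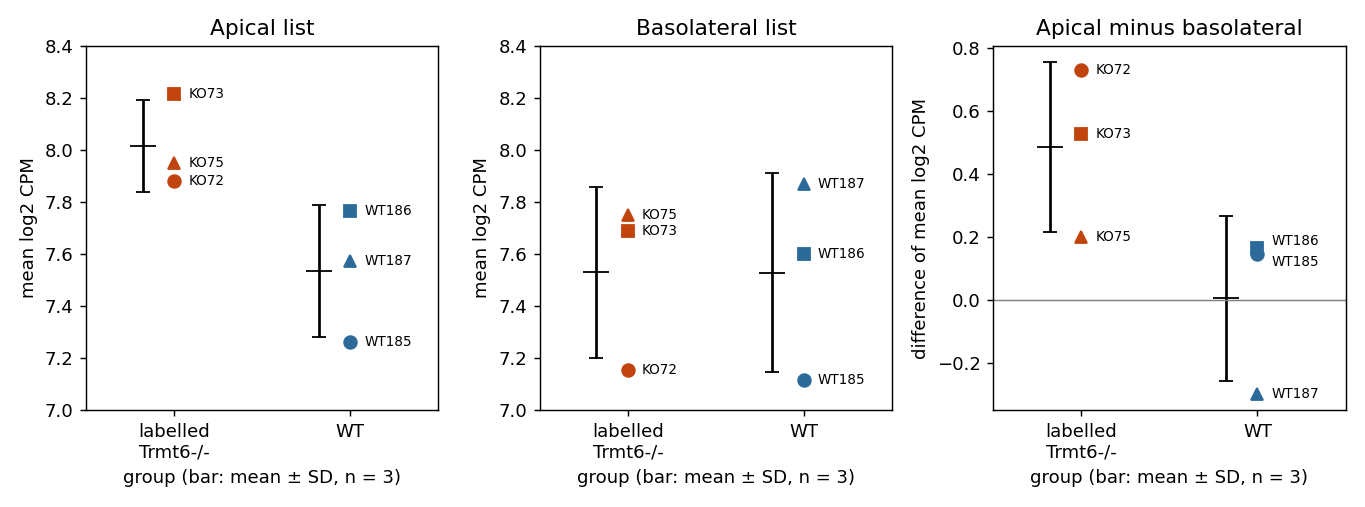
Mean log2 CPM of the tested apical genes, of the basolateral genes, and their difference, 1 point per library, with the mean ± SD of each group (n = 3). The apical means do not overlap, the basolateral means do, and the difference separates the groups by a narrow gap between 0.20 in KO75 and 0.17 in WT186.

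Transporters known as ATF4 targets had log2 fold changes above 0 in all 7 tested genes of 8 listed, with a median of 0.50, and none passed after adjustment. Slc6a9 and Slc7a5 had an unadjusted p below 0.05, 2 of 7, against 12.1% of all tested genes, and 3 of the 7 (42.9%, against 18.7% of all tested genes) had groups without overlap. Slc6a9 (GLYT1), a glycine carrier, stood at 20.5 CPM in KO72, 22.5 CPM in KO73 and 18.7 CPM in KO75, against 5.84 CPM in WT185, 3.21 CPM in WT186 and 8.45 CPM in WT187 (log2 fold change 1.82 ± 0.36, unadjusted p = 0.00147, adjusted p = 0.173). Each library labelled Trmt6-/- was at least 2 times the highest WT library, and the log2 fold change stayed between 1.54 and 2.16 whichever library was left out. The regional covariate left it at 1.64. Of the Slc6a9 exon bases 30.2% are shared with B4galt2, Ccdc24 and Gm17114, and reads there were left out of the counts.

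Slc7a5 (LAT1), the light chain that brings leucine and other large neutral amino acids into growing cells, stood at 49.2 CPM in KO72, 25.3 CPM in KO73 and 33.8 CPM in KO75, against 19.4 CPM in WT185, 5.05 CPM in WT186 and 12.8 CPM in WT187 (log2 fold change 1.54 ± 0.49, unadjusted p = 0.0163, adjusted p = 0.288). KO73, the lowest library labelled Trmt6-/-, was above WT185, the highest WT library. With the regional covariate the fold change fell to 0.92, and Slc7a5 no longer had an unadjusted p below 0.05. The same held for its p without KO72. Slc38a2 (SNAT2), a sodium-driven carrier that answers amino acid shortage, stood at 187 CPM in KO72, 159 CPM in KO73 and 169 CPM in KO75, against 154 CPM in WT185, 96.3 CPM in WT186 and 137 CPM in WT187 (log2 fold change 0.41 ± 0.20, adjusted p = 0.503), a narrow separation. Slc1a4 (ASCT1), an exchanger of serine, alanine and cysteine, stood at 28.4 CPM in KO72, 10.9 CPM in KO73 and 10.4 CPM in KO75, against 12.8 CPM in WT185, 3.07 CPM in WT186 and 6.89 CPM in WT187 (log2 fold change 1.12 ± 0.61, adjusted p = 0.540). KO72 was high and the other 2 libraries labelled Trmt6-/- lay below WT185. Its fold change was 0.48 without KO72 and 0.05 with the regional index.

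Slc7a1 (CAT1), the carrier of arginine and lysine, stood at 166 CPM in KO72, 109 CPM in KO73 and 127 CPM in KO75, against 142 CPM in WT185, 69.4 CPM in WT186 and 116 CPM in WT187 (log2 fold change 0.30 ± 0.29, adjusted p = 0.766). Slc1a5 and Slc3a2, given above, complete the tested ATF4 targets. WT186 was the lowest library for 6 of the 7 genes and KO72 the highest for 5, against 23.3% and 15.9% of all tested genes. With the regional index as covariate Slc1a5 and Slc7a1 turned to -0.29 and -0.11, and the list median was 0.17, while over the same 7 genes it lay between 0.25 without WT186 and 1.12 without WT185. Without WT185 it was 1.44 when Slc7a3, which is then abundant enough to test, joined the list. Slc7a3 (CAT3), also on the list, was too rare to test in the full set of libraries, with 42 counts in the libraries labelled Trmt6-/- against 2 in WT. That is 23.0 times as many at equal depth, with exact 95% counting bounds of 5.99 and 196, which leave out the spread among mice.

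**Figure D4:**
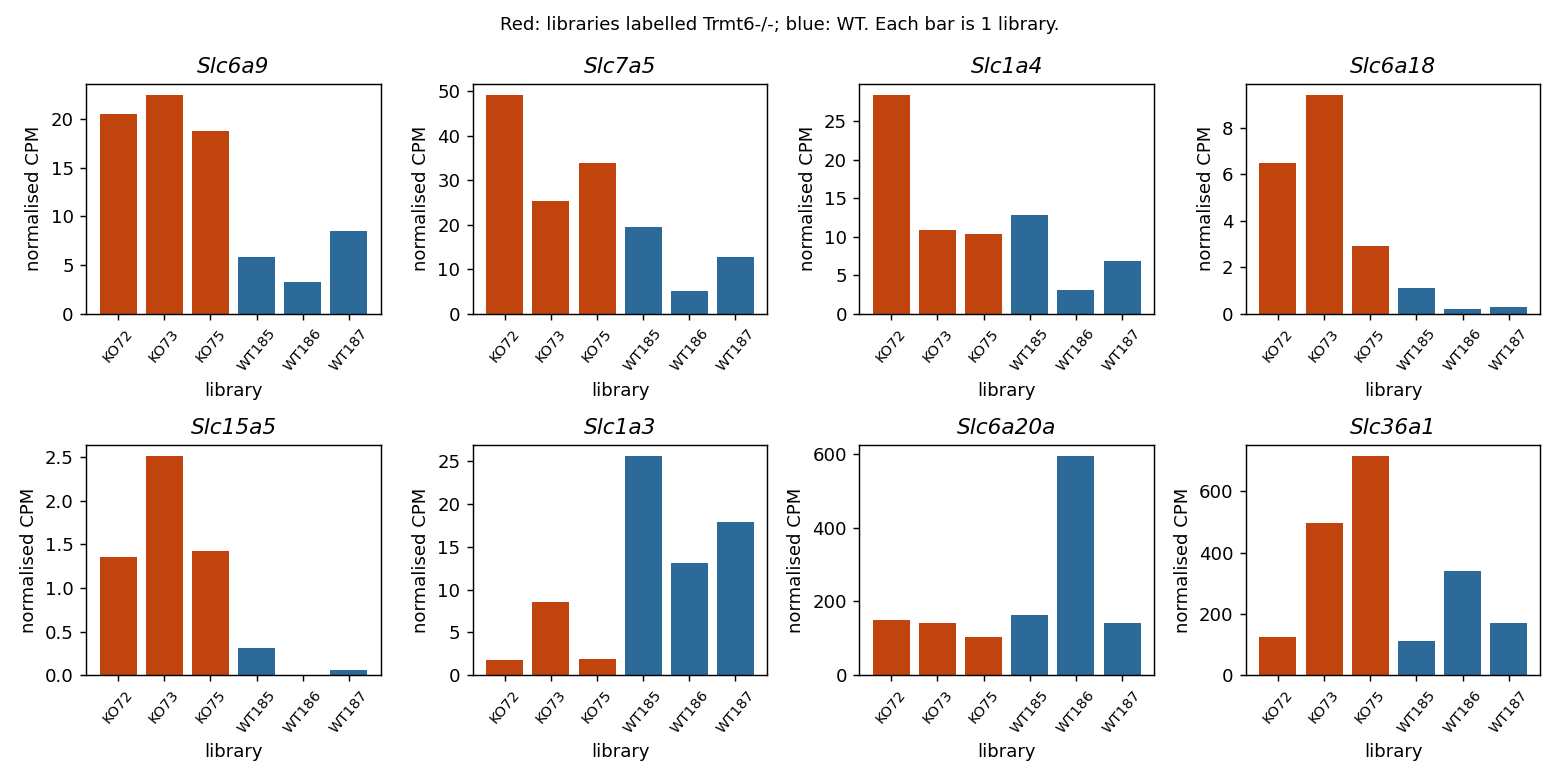
Normalised CPM in each library (1 bar per library, axis from 0) of 8 transporter genes, with the libraries labelled Trmt6-/- in red on the left and WT in blue. Slc6a9, Slc7a5, Slc6a18 and Slc15a5 are higher in all 3 libraries labelled Trmt6-/-, Slc1a3 is lower in all 3, Slc1a4 is high in KO72, Slc6a20a is high in WT186, and Slc36a1 is high in KO73 and KO75.

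Promoter letters of these genes are shown because ATF4 binds a composite element, the C/EBP-ATF response element, upstream of many of its targets. RefSeq windows from 250 bases before to 50 after each start site (GRCm38.p6) were held for 50 of the 69 genes and 5 of the 8 ATF4 targets. They were searched on both strands for TGATGNAAN, where N is any base. The letters stood in a window of 4 of the 50 genes (8%), Slc1a4, Slc7a7, Slc15a5 and Slc6a21, against 4.50% of the 27025 genes in the RefSeq table. Among the 5 ATF4 targets Slc1a4 was the 1 with a match, which begins 5 bases before its start site on the reverse strand. The stretches below run 5′ to 3′ along the gene from 150 bases before the start site to 20 bases into the gene, and capitals mark the match. They are Slc1a4 (chr11:20332694-20332863, minus strand), Slc6a9 at the most upstream of its 3 start sites (chr4:117835108-117835277, plus strand) and Slc38a2 (chr15:96699709-96699878, minus strand).
Slc1a4: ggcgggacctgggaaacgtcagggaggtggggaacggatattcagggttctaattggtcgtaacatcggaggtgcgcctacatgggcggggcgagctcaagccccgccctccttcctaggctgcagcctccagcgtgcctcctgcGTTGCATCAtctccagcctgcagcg
Slc6a9: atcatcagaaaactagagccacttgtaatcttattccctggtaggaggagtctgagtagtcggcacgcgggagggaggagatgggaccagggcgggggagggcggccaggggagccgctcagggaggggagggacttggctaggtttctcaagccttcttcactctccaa
Slc38a2: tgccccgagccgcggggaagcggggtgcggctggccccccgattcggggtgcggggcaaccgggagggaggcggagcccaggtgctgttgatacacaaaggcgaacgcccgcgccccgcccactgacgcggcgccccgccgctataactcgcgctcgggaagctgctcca
The Slc1a4 match is a description of these letters and no evidence of binding. The windows of Slc6a9, Slc38a2, Slc3a2 and Slc7a1 did not hold these letters, which says nothing of the factor.

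Neurotransmitter and osmolyte carriers included the most abundant gene of all 69 by length. Slc6a8, the creatine carrier, averaged 180.1 RPKM and stood at 924 CPM in KO72, 1454 CPM in KO73 and 903 CPM in KO75, against 405 CPM in WT185, 1157 CPM in WT186 and 789 CPM in WT187 (log2 fold change 0.48 ± 0.41, adjusted p = 0.728). Slc6a6 (TAUT), the taurine carrier, stood at 431 CPM in KO72, 509.9 CPM in KO73 and 374 CPM in KO75, against 295 CPM in WT185, 379 CPM in WT186 and 346 CPM in WT187 (log2 fold change 0.37 ± 0.20, adjusted p = 0.544). Slc6a4 (SERT), which recovers serotonin in enterocytes, stood at 79.7 CPM in KO72, 127 CPM in KO73 and 149 CPM in KO75, against 62.4 CPM in WT185, 92.9 CPM in WT186 and 89.1 CPM in WT187 (log2 fold change 0.54 ± 0.27, adjusted p = 0.505). All of these were lowest in WT185, and their groups overlapped.

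Slc1a3 (GLAST), a glutamate carrier best known from glia, was the gene of this group with an unadjusted p below 0.05 in the reported fit. It stood at 1.75 CPM in KO72, 8.52 CPM in KO73 and 1.92 CPM in KO75, against 25.6 CPM in WT185, 13.2 CPM in WT186 and 17.9 CPM in WT187 (log2 fold change -2.22 ± 0.66, unadjusted p = 0.0123, adjusted p = 0.272). Each library labelled Trmt6-/- lay below each WT library, and the log2 fold change ran from -3.36 to -1.85 with 1 library left out. Of 6 enteric neuron and glia markers 2 were abundant enough to test, and their summed level ran from 17.3 to 41.6 CPM among libraries labelled Trmt6-/-, against 5.19 to 7.40 CPM in WT, with Ret making up most of it. The glial gene S100b stayed at or below 0.24 CPM and Sox10 had no count in any library. Of 16 listed genes 7 were tested, 5 above 0 and 2 below, with a median of 0.37. With the regional index as covariate Slc6a4 (log2 fold change 1.02, unadjusted p = 0.0018), Slc6a8 (1.24, 0.0431), Slc6a3 (2.75, 0.0488) and Slc6a7 (-0.95, 0.0453) also fell below 0.05. None passed after adjustment, and 20.5% of all tested genes fell below that bound. Without KO72 Slc6a4 was at 0.77 (unadjusted p = 0.0115), and without WT186 Slc6a3 was at 2.94 (unadjusted p = 0.0280).

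No lysosomal carrier reached an unadjusted p of 0.05. Of 6 listed genes 4 were tested, 2 above 0 and 2 below with a median of 0.02, and Slc36a1, also counted among the apical genes, was the widest. Slc38a9, the arginine sensor of the mTORC1 pathway, was measured at 17.6 ± 0.956 CPM in the libraries labelled Trmt6-/- against 16.8 ± 2.51 CPM in WT (SD, n = 3 each; log2 fold change 0.06 ± 0.18, adjusted p = 0.932). Slc38a7 stood at 21.8 ± 2.70 CPM in the libraries labelled Trmt6-/- against 22.3 ± 2.23 CPM in WT (log2 fold change -0.03 ± 0.17, adjusted p = 0.971) and Slc15a4, a histidine and peptide carrier of endolysosomes, at 11.3 ± 2.57 CPM in the libraries labelled Trmt6-/- against 13.6 ± 2.86 CPM in WT (log2 fold change -0.27 ± 0.27, adjusted p = 0.766). These 3 had fold changes under 0.3 in size. With the regional index as covariate Slc15a4 was at -0.68 and Slc36a1 at 2.22, with unadjusted p of 0.0398 and 0.00381, and without KO72 Slc36a1 was at 1.56 (unadjusted p = 0.0155). Of all tested genes 20.5% had an unadjusted p below 0.05 in the covariate fit.

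Among the other carriers, Slc6a18 and Slc15a5 had the largest fold changes, both at low levels. Slc6a18 (B0AT3), a neutral amino acid carrier known from the kidney and neighbour of Slc6a19 on chromosome 13, stood at 6.49 CPM in KO72, 9.43 CPM in KO73 and 2.92 CPM in KO75, against 1.09 CPM in WT185, 0.205 CPM in WT186 and 0.2997 CPM in WT187 (log2 fold change 3.50 ± 0.74, unadjusted p = 0.00222, adjusted p = 0.180). The 291 counts against 29 were 11.003 times as many at equal depth, with exact 95% counting bounds of 7.499 and 16.7. These bounds pool the mice of a group and leave out the spread among them. Slc15a5, a peptide carrier family member without a settled substrate, stood at 1.35 CPM in KO72, 2.51 CPM in KO73 and 1.42 CPM in KO75, against 0.313 CPM in WT185, 0 CPM in WT186 and 0.0599 CPM in WT187 (log2 fold change 3.65 ± 0.85, unadjusted p = 0.00376, adjusted p = 0.202), from 80 counts against 7. Both were higher in all 3 libraries labelled Trmt6-/- than in any WT library. Both passed the low-count filter only through the libraries labelled Trmt6-/-, so they could be tested only because they were higher there. They are 2 of the 5 higher genes at an unadjusted p below 0.05 and 2 of the 7 higher without overlap. DESeq2, run after the same filter, called 3 transporters higher, and they are 2 of these. With 1 library left out, the log2 fold change ran from 3.09 to 4.61 for Slc6a18 and from 3.16 to 5.498 for Slc15a5, and it was 2.42 and 2.99 with the regional index.

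Slc36a4 (PAT4), which carries proline and tryptophan, stood at 6.38 CPM in KO72, 5.45 CPM in KO73 and 6.62 CPM in KO75, against 4.38 CPM in WT185, 1.98 CPM in WT186 and 3.66 CPM in WT187 (log2 fold change 0.88 ± 0.36, unadjusted p = 0.0455, adjusted p = 0.399). Slc38a11, a family member without an assigned substrate here, stood at 0.847 CPM in KO72, 1.12 CPM in KO73 and 0.640 CPM in KO75, against 1.67 CPM in WT185, 2.66 CPM in WT186 and 1.98 CPM in WT187 (log2 fold change -1.26 ± 0.40, unadjusted p = 0.0160, adjusted p = 0.285). The first was higher and the second lower in every library labelled Trmt6-/- than in any WT library. With 1 library left out, the log2 fold change ran from 0.62 to 1.15 for Slc36a4 and from -1.48 to -1.05 for Slc38a11. Slc36a4 then had an unadjusted p below 0.05 only without WT185, and not with upper-quartile scaling, library totals or the regional index. Slc38a11 did not reach that bound with the regional index, nor without KO72, KO75 or WT186. Slc7a15, a mouse SLC7 member, was abundant at 119 CPM in KO72, 176 CPM in KO73 and 123 CPM in KO75, against 47.2 CPM in WT185, 256 CPM in WT186 and 206 CPM in WT187 (log2 fold change -0.28 ± 0.55, adjusted p = 0.896), and without WT186 its fold change turned to 0.16.

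Slc15a2 (PEPT2), the high-affinity peptide carrier, stood at 12.5 CPM in KO72, 9.99 CPM in KO73 and 3.70 CPM in KO75, against 2.03 CPM in WT185, 0.750 CPM in WT186 and 27.3 CPM in WT187 (log2 fold change -0.19 ± 1.18, adjusted p = 0.972). Slc6a3, the dopamine carrier, stood at 1.69 CPM in KO72, 11.3 CPM in KO73 and 14.4 CPM in KO75, against 1.82 CPM in WT185, 9.21 CPM in WT186 and 0.539 CPM in WT187 (log2 fold change 1.25 ± 1.08, adjusted p = 0.731). Slc7a2 (CAT2), an arginine carrier, stood at 9.09 CPM in KO72, 7.33 CPM in KO73 and 0.285 CPM in KO75, against 9.69 CPM in WT185, 2.52 CPM in WT186 and 3.36 CPM in WT187 (log2 fold change 0.10 ± 1.01, adjusted p = 0.982). For Slc15a2 WT187 was the highest and the other WT libraries the lowest, Slc6a3 was high in KO73, KO75 and WT186, and Slc7a2 was nearly absent in KO75, so that none of the 3 separated the groups.

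Slc38a1 (SNAT1), a glutamine carrier, stood at 101 CPM in KO72, 74.8 CPM in KO73 and 74.9 CPM in KO75, against 99.2 CPM in WT185, 53.0 CPM in WT186 and 63.3 CPM in WT187 (log2 fold change 0.22 ± 0.26, adjusted p = 0.816), and WT186 was the lowest, as for Slc38a2. Slc38a10, a glutamine and glutamate carrier, was even across libraries at 114 CPM in KO72, 154 CPM in KO73 and 144 CPM in KO75, against 132 CPM in WT185, 166 CPM in WT186 and 128 CPM in WT187 (log2 fold change -0.04 ± 0.18, adjusted p = 0.958). The log2 fold changes were 0.32 for Slc38a6, 0.22 for Slc38a8, 0.19 for the proline carrier gene Slc6a7 and 0.16 for Slc7a4. They were -0.07 for Slc7a6os and -0.43 for the glutamate carrier gene Slc1a2. The rare facilitative carriers Slc43a1 and Slc43a3 had fold changes of 0.69 and -0.55. Slc43a1 averaged 1.53 ± 0.541 CPM in the libraries labelled Trmt6-/- against 0.932 ± 0.685 CPM in WT, and Slc43a3 averaged 0.596 ± 0.383 CPM in the libraries labelled Trmt6-/- against 0.865 ± 1.07 CPM in WT (SD, n = 3 each). None of these genes reached an unadjusted p of 0.05 in the reported fit.

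Of the 24 genes not tested, 13 had some counts and all averaged 2.45 CPM or less. Slc6a14 (ATB0,+), an apical carrier of neutral and basic amino acids, was the highest. It stood at 0.339 CPM in KO72, 1.89 CPM in KO73 and 0.569 CPM in KO75, against 11.5 CPM in WT185, 0.409 CPM in WT186 and 0 CPM in WT187, so that WT185 held most of its counts. Slc7a3, given above, was the next named by level, and Slc1a7, a glutamate carrier, had 7 counts in the libraries labelled Trmt6-/- against 27 in WT. Slc6a12, the betaine carrier, had 0 counts in the libraries labelled Trmt6-/- and 18 in WT, all in WT186. Others with counts included Slc15a3, Slc38a4, Slc38a3, Slc6a13, Slc36a3, Slc38a5, Slc7a14 and Slc6a21, and of these Slc38a4 reached 1.09 CPM, in WT185, and the rest stayed below 1 CPM in every library. The 11 genes without a count were Slc7a12, Slc6a17, Slc7a13, Slc6a11, Slc7a10, Slc6a16, Slc6a5, Slc6a2, Slc1a6, Slc6a15 and Slc36a2, and a count of 0 allows up to 3 counts, that is 0.156 to 0.214 CPM per library.

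Genes that work beside the transporters gave a mixed picture. Of 15 listed partners and digestive enzymes of the brush border 14 were tested, 9 above 0 and 5 below with a median of 0.25, and 0 passed in edgeR. DESeq2 called Enpep (adjusted p = 0.0222) and Mme (adjusted p = 0.0160) among those named here. An unadjusted p below 0.05 was reached by 1 higher and 2 lower, 21.4% of the 14 against 12.1% of all tested genes. Enpep, the aminopeptidase that trims acidic residues, stood at 2111 CPM in KO72, 3125 CPM in KO73 and 3171 CPM in KO75, against 1157 CPM in WT185, 1699.7 CPM in WT186 and 1602 CPM in WT187 (log2 fold change 0.91 ± 0.30, adjusted p = 0.299), higher in every library labelled Trmt6-/-. Mme (neprilysin), an endopeptidase, stood at 219.5 CPM in KO72, 399 CPM in KO73 and 328 CPM in KO75, against 489.6 CPM in WT185, 2461 CPM in WT186 and 946 CPM in WT187 (log2 fold change -2.04 ± 0.60, adjusted p = 0.269), lower in every library labelled Trmt6-/-. Its fold change was -1.17 without WT186, the highest library, and -0.68 with the regional index. Tmprss15, which activates trypsinogen, stood at 0 CPM in KO72, 1.54 CPM in KO73 and 0 CPM in KO75, against 16.9 CPM in WT185, 231 CPM in WT186 and 0.120 CPM in WT187 (log2 fold change -7.37 ± 2.42, adjusted p = 0.301), with WT186 holding most of its counts. Slc9a3 (NHE3), whose proton export drives the peptide and proline carriers, stood at 223 CPM in KO72, 780.2 CPM in KO73 and 1374 CPM in KO75, against 138 CPM in WT185, 489 CPM in WT186 and 294 CPM in WT187 (log2 fold change 1.37 ± 0.70, adjusted p = 0.520), and its groups overlapped.

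Amino acid response genes outside the transporter set, 10 in all and each tested, had a median log2 fold change of 1.85, with 9 above 0 and groups without overlap in 9, or 90%, against 18.7% of all tested genes. Atf5, a transcription factor gene of this response, passed over all genes at 82.6 CPM in KO72, 63.3 CPM in KO73 and 105 CPM in KO75, against 14.6 CPM in WT185, 9.07 CPM in WT186 and 10.7 CPM in WT187 (log2 fold change 2.86 ± 0.27, adjusted p = 0.0424). With any 1 library left out it no longer passed, with adjusted p from 0.0710 to 0.198, while its log2 fold change stayed between 2.67 and 3.10. Beside these, the 7 tested ATF4-target transporters had a median of 0.50. Slc7a11 belongs to that outside list and is not counted among the transporters here.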

How the data were processed

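Per the labels, RNA was taken with a ZYMO Quick-RNA kit, amplified as cDNA and made into libraries with a Vazyme TruePrep kit, and no molecular identifiers are named, so intervals on counts cover counting error only. Raw counts per gene were deposited by the authors, written per the file headers by featureCounts 2.0.1 on exons of GENCODE M23, with paired reads and no strand, multimapping or overlap option, so that reads in exons shared by 2 genes were not counted. The submitters' processing notes name fastp, HISAT2 and mm10. Gene length (unit: other) is the deposited column of summed exon bases and served for RPKM. Symbols and gene types came from GENCODE M21 (55154 of 55335 identifiers matched), in place of M23. Each column name gives its group with an animal number, and was mapped to its group alone.

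After filterByExpr and TMM scaling, genes were tested with edgeR 4.0.16 in R 4.3.3 (glmQLFTest, two-sided, genotype as the only term), with Benjamini-Hochberg adjustment over 14107 genes and a threshold of 0.05. The code of the fit was checked on simulated counts, with a pass condition set at less spread than these data have (common biological coefficient of variation 0.345). That check does not show how well the fit finds changes of the size seen here. List levels use log2 CPM with a prior count of 2. Alternatives were RLE, upper-quartile and library-total scaling, no filter, a stricter filter (1 CPM in 3 libraries), DESeq2 1.42.0, limma-voom (limma 3.58.1), the regional index as covariate and each library left out. The index subtracts the mean log2 CPM of 4 proximal genes (Fabp1, Cybrd1, Lct, Gata4) from that of 4 ileal genes (Slc51b, Fgf15, Slc10a2, Fabp6). Leaving out a library with the genes kept, and list medians under each alternative, were added after seeing the data.

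The members and lists were chosen with earlier results of these data known. Named were Trmt6, all tested apical, basolateral and ATF4-target genes, of the other tested members the 6 with the smallest p and the 4 with the highest RPKM, 3 untested members by CPM, and from the partner and amino acid response lists those past the threshold or else the 4 with the smallest p. The cell and position marker genes, the lysosomal genes, the other members and Alpi were named after their values were seen.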

Additional observations from a re-analysis of the deposited data

How the results depend on the processing

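No paired analysis was possible because the columns carry animal numbers and not the replicate numbers of the labels. Genes changed over the whole table numbered 6 in the reported fit, against 0 with library totals, with limma-voom and with the regional covariate, 159 without the low-count filter, 633 with DESeq2, and 0 to 6 with 1 library left out. Transporters changed were 0, except 2 higher without the filter, and 3 higher and 1 lower with DESeq2. At an unadjusted p below 0.05 the 5 higher became 10 without the filter, 8 with DESeq2, 12 with the covariate, and 4 to 12 with 1 library left out, and the 3 lower became 5 without the filter and 1 to 5 with 1 library left out. The apical minus basolateral difference of 0.48 ran from 0.10 to 0.57 with 1 library left out, and from 0.33 to 0.62 with the genes held the same. Of 29 transporters followed, 19 kept their sign in all alternatives run. Library totals, which moved the median of all genes to -0.11, turned Slc3a2 to -0.059. The covariate turned Slc1a1 to -0.13, Slc1a5 to -0.29, Slc7a6 to -0.29, Slc7a1 to -0.11, Slc7a8 to 0.41, Slc16a10 to 0.71, Slc43a2 to 0.42 and Slc7a15 to 1.16. With 1 library left out, log2 fold changes that crossed 0 ran from -0.063 to 0.63 for Slc15a1, -0.22 to 0.20 for Slc3a2, -0.25 to 0.51 for Slc7a6, -0.48 to 0.15 for Slc16a10, -0.47 to 0.0087 for Slc43a2 and -0.71 to 0.16 for Slc7a15. Atf5 lost its call with upper-quartile scaling (adjusted p = 0.0511), library totals (0.0786), limma-voom (0.0803) and the covariate (0.0613), with log2 fold changes of 2.87, 2.76, 2.84 and 2.76. With library or scaling changed, the cause was not tested. With 3 libraries a group, low genes such as Slc15a5 and Slc6a20b rest on few counts.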

Other observations

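Slc36a1 and Slc9a3, which were chosen here after their values were seen, put the 6 libraries in the same order. From low to high this was WT185, KO72, WT187, WT186, KO73 and KO75, with Slc36a1 from 112 to 715 CPM and Slc9a3 from 138 to 1374 CPM. Both encode proteins that work with the proton gradient of the brush border. The order did not follow the genotype labels, since KO72 stood with the low WT libraries, and Slc15a1, the proton-driven peptide carrier, did not share it, being higher in WT187 than in KO72 or KO75.

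WT186 alone held high values of Slc6a20a, Slc6a20b and Slc6a12, together with Tmprss15, Alpi and pancreatic transcripts. Alpi, the intestinal alkaline phosphatase gene, stood at 420.0 CPM in KO72, 787 CPM in KO73 and 577 CPM in KO75, against 766 CPM in WT185, 3204 CPM in WT186 and 664 CPM in WT187. Summed CPM of the 6 pancreatic acinar markers was 52.1 in WT186 and between 5.68 and 26.0 in the other libraries, where Cela1 made up nearly all of it; Prss2, Cpa1 and Pnlip reached 5.46, 9.28 and 9.28 CPM in WT186 and at most 0.21 CPM elsewhere.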
